A study of Mus musculus with 27 samples.

Results

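The 10 genes described here belong to the Notch pathway and were chosen by name: the receptor Notch1, the ligands Dll1, Dll3, Dll4, Jag1 and Jag2, and the target genes Hes1, Hes5, Hey1 and Hey2. They are 10 of 25209 genes listed in each of 8 deposited tables, and all 10 were found in every table. In the cardiomyocyte differentiation, Dll1 and Hes5 rose and Dll4 and Hey2 fell steeply in the knockout clone KO4, while in the clone KO8 Dll4 fell less and Hey2 did not pass the test. In the neural differentiation, Dll1 and Hes5 were higher in both clones.

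RNA was sequenced from mouse V6.5 embryonic stem cells in 27 libraries, to ask how loss of ZNF512B, a zinc finger protein encoded by Zfp512b, affects stem cells and their differentiation. WT cells, KO4 and KO8 were each sequenced in 3 libraries as naive cells (Day 0, in 2iLIF medium, which blocks MEK and GSK3) and in 2 libraries per group at each later stage. Primed cells had spent 2 days in serum medium with LIF. NPC libraries came from embryoid bodies on Day 10, after priming, 4 days in hanging drops and 4 days with 5 µM retinoic acid, and CM libraries from embryoid bodies at 7.5 days, after priming, 4 days in hanging drops and 1.5 days on gelatine, both with vitamin C. KO4 and KO8 are each a single clone in which transcription terminators, with mCherry or puromycin resistance as selection genes, were inserted behind the third exon of Zfp512b. Nothing in the labels says that libraries of a group came from separate cultures, so p-values measure the spread between libraries, which may be technical.

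Notch signalling passes between touching cells. Delta and Jagged ligands on one cell bind a Notch receptor on its neighbour, proteases release the intracellular part of the receptor, and this part joins the DNA-binding protein RBPJ in the nucleus to switch on genes such as those of the Hes and Hey repressors. In the neural tube and in embryoid bodies that form neural cells, Dll1 and Dll3 are known from newborn neurons and Hes1 and Hes5 from their progenitors. Dll4 is best known from arterial and tip cells of blood vessels, Hey1 and Hey2 from the heart and from arteries, and Dll1, Dll3 and Lfng from the presomitic mesoderm.

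The deposited tables give 1 base mean per gene, which the authors computed over the libraries of a clone and of WT, and no value per library. Whole reads per library were recovered from these means where a single set of reads solved both tables of a stage, as set out under the processing. They were recovered for 29 of 40 pairs of member and stage: for all 10 members in primed cells, 7 in NPCs, and 6 each in naive cells and CMs. Libraries are numbered by depth within a group, since nothing ties them to the replicate numbers of the labels. Approximate depth, in units of 1000000 reads, ran from 34.2 to 39.6 at the naive stage, from 15.1 to 18.1 at the primed stage, from 16.1 to 18.6 for NPCs and from 17.1 to 19.4 for CMs. Levels are given in reads per 1000000 reads of the library (RPM), not corrected for gene length, so they compare libraries and not genes. Log2 fold changes refer to log2(RPM + 0.25), which understates the change of weak genes, and are followed by their standard error (SE). A gene is called where limma's moderated test gave a Benjamini-Hochberg adjusted p below 0.05 over all genes tested.

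Zfp512b reads fell in both clones. In primed cells it had 977 and 979 reads in the WT libraries, 188 and 213 in KO4 and 183 and 135 in KO8. In CMs it had 1199 and 1076 reads in WT, 179 and 199 in KO4 and 165 and 169 in KO8. The libraries of WT and the clones did not overlap at either stage. In naive cells and NPCs, the reads of Zfp512b were not recovered. The cell types were checked against their markers by the authors' base means. The 8 naive pluripotency markers lay between 3014 and 47780 in the naive tables. The 9 cardiomyocyte markers lay between 610.5 and 14100 in the CM tables and between 6.413 and 180.7 in the NPC tables, and the 7 neural progenitor markers between 117.0 and 8580 in the NPC tables. The neural list does not set NPCs apart, since it lay between 17.73 and 21010 in the CM tables and reached 18430 in the naive tables, and Sox1, Pax6 and Sox2 were higher in the CM table of KO4 (1757, 1425 and 4311) than in the NPC table of KO4 (132.1, 294.1 and 912.7). NPC and CM libraries hold several cell types, and in such bulk samples fewer cells of a type and less RNA per cell cannot be told apart.

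The promoters of 3 target genes are shown, because the Hes and Hey genes are read here as targets and the core sequence bound by RBPJ can be seen in them. Each is the 250 bases before the start of the longest coding transcript (NCBIM37, the build the authors call mm9, with gencode annotation), printed 5′ to 3′ on the strand of the gene. Capitals mark TGGGAA or its reverse complement TTCCCA.
Hes1 (chr16:30065176-30065425, plus strand): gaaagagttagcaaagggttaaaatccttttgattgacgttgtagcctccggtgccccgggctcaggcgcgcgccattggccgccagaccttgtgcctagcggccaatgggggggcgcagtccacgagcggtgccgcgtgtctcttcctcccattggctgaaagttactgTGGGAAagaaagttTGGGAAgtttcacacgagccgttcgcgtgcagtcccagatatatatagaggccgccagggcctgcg
Hes5 (chr4:154334782-154335031, plus strand): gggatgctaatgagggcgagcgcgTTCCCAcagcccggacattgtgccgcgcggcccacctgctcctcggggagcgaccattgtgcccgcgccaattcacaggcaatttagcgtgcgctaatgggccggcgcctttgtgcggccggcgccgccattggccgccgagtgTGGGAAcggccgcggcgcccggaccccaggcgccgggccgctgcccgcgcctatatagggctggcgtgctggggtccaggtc
Hey2 (chr10:30562608-30562857, minus strand): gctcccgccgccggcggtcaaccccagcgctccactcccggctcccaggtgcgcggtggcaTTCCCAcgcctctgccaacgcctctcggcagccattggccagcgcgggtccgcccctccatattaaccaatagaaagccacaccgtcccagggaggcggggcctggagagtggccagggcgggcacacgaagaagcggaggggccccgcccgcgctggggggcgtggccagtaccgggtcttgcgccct
The motif stood 80 and 66 bases before the start of Hes1, 226 and 82 before Hes5, and 189 before Hey2. A second motif searched, the N-box CACNAG or CTNGTG that Hes proteins bind, was found in 3 of 10 members and in 35.5% of promoters. The RBPJ core was found on either strand in 3 of 10 members and in 4629 of 22372 promoters of the same length (20.7%). The windows of Notch1, Dll1, Dll3, Dll4, Jag1, Jag2 and Hey1 held no match, which says only that these letters are not in these bases.

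**Figure D1:**
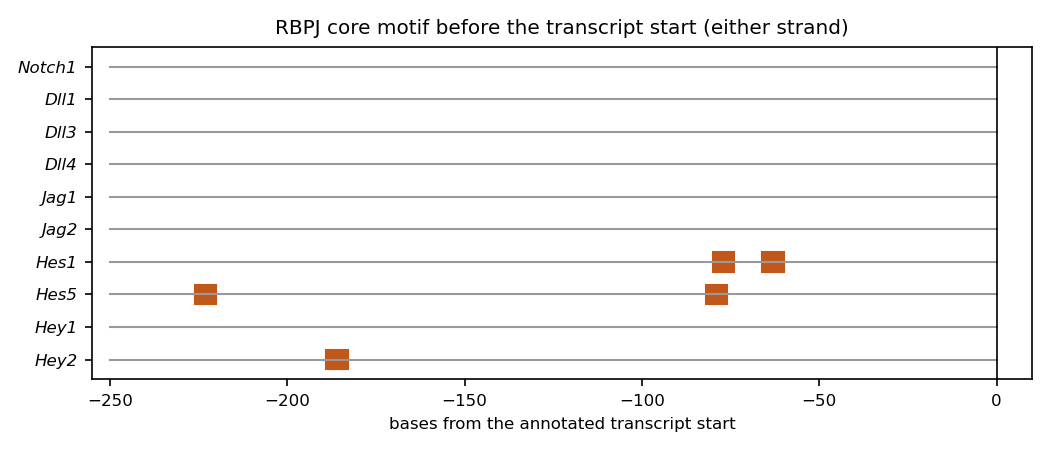
Position of TGGGAA or its reverse complement (boxes) in the 250 bases before the annotated transcript start of each member, with the distance from the start in bases on the horizontal axis. Hes1 and Hes5 held 2 matches each, Hey2 held 1 and the other 7 members held none.

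In the genome (NCBIM37), Notch1 lies at chr2:26313423-26372183 on the minus strand, Dll4 at chr2:119151520-119161698 on the plus strand and Jag1 at chr2:136907192-136942380 on the minus strand. Dll1 lies at chr17:15504318-15513836, Dll3 at chr7:29076673-29087257 and Jag2 at chr12:114146801-114167706, all on the minus strand. Hes1 lies at chr16:30064470-30067882 and Hes5 at chr4:154335032-154336480 on the plus strand, and Hey1 at chr3:8663362-8667039 and Hey2 at chr10:30552165-30562607 on the minus strand.

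The WT libraries show how the members stood before any gene was lost. Dll1 had 5, 2 and 3 reads in the naive WT libraries (0.0916 RPM ± 0.0345, SD, n = 3). The primed WT libraries held 11.6 and 13.6 RPM of it. NPCs held 9.47 and 9.72 RPM, and CMs held less, 5.70 and 3.70. Dll4 was close to absent in naive WT cells with 0, 4 and 2 reads, had 9 and 3 reads in primed cells, and reached 31.2 and 26.4 RPM in NPCs and 25.8 and 34.8 RPM in CMs. The NPC and CM libraries of Dll4 overlapped, and both stages lay far above the primed libraries. Hey2 stood at 0.763 and 0.742 RPM in primed WT cells, rose to 5.64 and 2.99 RPM as NPCs and reached 30.9 and 33.2 RPM as CMs. Hes5 was highest in NPCs, with 3.78 and 4.67 RPM against 0.545 and 0.285 in primed cells and 0.513 and 1.29 in CMs, and the primed and CM libraries of Hes5 differed by less than their spread.

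From primed cells to NPCs, 5 of the 7 members tested were called in WT, beside 80.1% of 9210 genes. Dll4 (log2 fold change 5.70, SE 0.29), Hes5 (2.77, SE 0.39) and Hey2 (2.12, SE 0.32) rose, and Dll3 fell by 0.88 (SE 0.29) and Jag2 by 0.47 (SE 0.13) on the log2 scale. From primed cells to CMs, 4 of 6 members were called, beside 75.2% of 9250 genes. Dll4 (5.76, SE 0.29) and Hey2 (5.01, SE 0.32) rose, Dll1 fell by 1.41 (SE 0.28) and Dll3 fell by 1.86 (SE 0.29). Over all genes tested, the median log2 change was 0.60 for NPCs and 0.33 for CMs. Levels were scaled across stages only by approximate depth, and the cause of these medians was not tested. From naive to primed cells, 3 of 6 members were called higher, beside 43.2% of 3834 genes with a median of 0.30. Dll1 rose by 5.24 (SE 0.25), Dll3 by 3.02 (SE 0.26) and Dll4 by 0.87 (SE 0.26). Only genes with a base mean of at most 90 were recovered in naive cells. This comparison could thus hardly show a gene that is high there. Dll1, Dll4 and Hes5, weak in naive cells, passed the filter on low values only through the other stages. The same holds for Dll4 and Hes5 in primed cells, so the filter favoured a rise from there to NPCs or CMs. The call of Dll4 from naive to primed cells was lost without primed WT library 1 (adjusted p = 0.264). The calls from primed cells to NPCs were lost for Dll3 without NPC WT library 1 (adjusted p = 0.0741) and for Jag2 without NPC WT library 2 (adjusted p = 0.082).

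**Figure D2:**
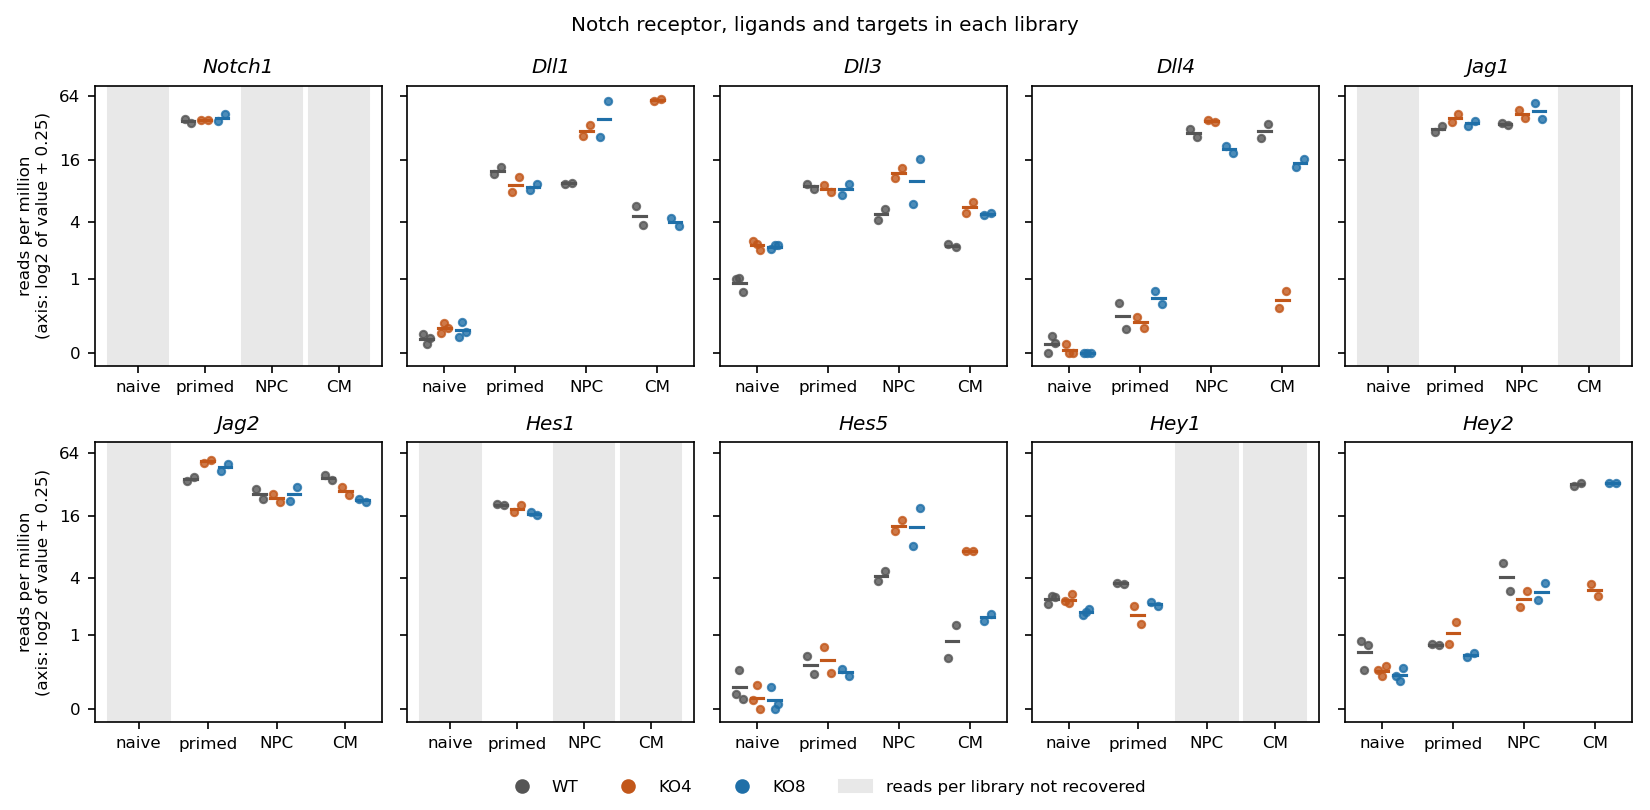
Level of each member in each library (points) and the mean of log2(RPM + 0.25) of each group (lines), by stage, on an axis of log2(RPM + 0.25) labelled in RPM. Grey bands mark stages where reads per library were not recovered. In CMs, the KO4 libraries of Dll1 and Hes5 lie above, and those of Dll4 and Hey2 below, all WT and KO8 libraries.

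In naive cells, 3 members could be tested: Dll3, Hey1 and Hey2. Dll3, a Delta protein that acts within the cell that makes it, had 40, 36 and 22 reads in WT, 93, 84 and 69 in KO4 and 80, 88 and 83 in KO8. All 6 knockout libraries lay above the 3 WT libraries, at 2.09 to 2.57 RPM in KO4 and 2.10 to 2.31 in KO8 against 0.687 to 1.01 in WT. The log2 fold change was 1.19 (SE 0.19, adjusted p = 4.88e-09) in KO4 and 1.13 (SE 0.19, adjusted p = 5.85e-08) in KO8, whose values share the WT libraries. Dll3 was called in every alternative tried in these comparisons. The clones differed from each other by 0.06 (SE 0.19). Some weak markers of other cell types moved as well, and not all in both clones. The sum of 5 of 6 markers of presomitic mesoderm and somites was 0.504 to 0.750 RPM in WT, 1.44 to 1.51 in KO4 and 0.612 to 1.39 in KO8, with 1 of the 5 at 0 in WT, and of 2 tested 2 were called higher in KO4 and 1 in KO8. The sum of 6 of 8 endothelial markers was 1.37 to 1.84 RPM in WT, 2.93 to 3.27 in KO4 and 2.44 to 2.94 in KO8, with 2 at 0 in each group, and of 3 tested 3 were called higher in KO4 and 1 in KO8. Over all genes, 27.0% were called in KO4 and 25.5% in KO8. The presomitic sum of KO8 overlapped WT. Sums of endoderm and cardiomyocyte markers overlapped WT in both clones. Those of primed epiblast and neuron markers lay above WT in KO4 alone, and those of neural progenitor and smooth muscle markers in both clones. The part of these markers in the change of Dll3 was not tested.

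Hey2 had 34, 12 and 24 reads in naive WT cells, 12, 9 and 13 in KO4 and 10, 8 and 13 in KO8. The WT library with 12 reads overlapped both clones. Hey2 fell by 0.72 on the log2 scale in KO8 (SE 0.27, adjusted p = 0.0302), and in KO4 the log2 fold change was -0.59 (SE 0.27, adjusted p = 0.0852). The call in KO8 was lost without WT library 1 or 3, or without KO8 library 1 or 2, with adjusted p up to 0.195. Hey1 had 88, 95 and 82 reads in WT, 84, 77 and 92 in KO4 and 64, 69 and 70 in KO8. Its KO8 libraries were the lowest 3 of the 9, with a log2 fold change of -0.40 (SE 0.16, adjusted p = 0.0529), while KO4 overlapped WT (-0.02, SE 0.16). The reads of Hey1 come from the range of base means, 60 to 90, where 21.8% of altered values also gave a solution.

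Thus 1 of 3 members was called in KO4 and 2 of 3 in KO8, beside 27.0% and 25.5% of 2580 genes, and none between the clones (1 at an unadjusted p below 0.05, none with voom weights), beside 6.32%. Dll1, Dll4 and Hes5 had too few reads to be tested in naive cells. Dll1 had 2 to 5 reads per WT library, 5 to 8 in KO4 and 4 to 9 in KO8. Hes5 had 2 to 12 reads in WT, 0 to 6 in KO4 and 0 to 6 in KO8. Dll4 had no read in the 3 KO8 libraries, which allows up to 3 reads or 0.0268 RPM, a limit that covers counting error only. The reads are not counts of independent molecules.

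In primed cells, all 10 members were recovered and 8 were tested. The receptor Notch1 had 720 and 633 reads in WT, 649 and 637 in KO4 and 638 and 652 in KO8. Its levels overlapped among the groups, at 36.1 to 39.2 RPM in WT, 38.3 to 38.6 in KO4 and 37.3 to 43.3 in KO8, with log2 fold changes of 0.03 (SE 0.09) in KO4 and 0.09 (SE 0.09) in KO8.

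Among the ligands, Jag2, a Jagged-type ligand, was higher in primed cells of both clones. It had 636 and 655 reads in WT, 867 and 915 in KO4 and 738 and 755 in KO8, or 34.7 and 37.4, 51.6 and 55.0, and 43.1 and 50.2 RPM. No knockout library reached down to WT. The log2 fold change was 0.56 (SE 0.08, adjusted p = 8.75e-07) in KO4 and 0.37 (SE 0.08, adjusted p = 0.00101) in KO8, and without KO8 library 2 the latter was 0.26 with adjusted p = 0.0971. Jag1, the Jagged ligand best known from the inner ear and vessels, had 29.2 and 33.5 RPM in WT, 36.8 and 44.0 in KO4 and 33.5 and 37.8 in KO8. It rose by 0.36 in KO4 (SE 0.09, adjusted p = 0.00392), a call lost without WT library 1 or KO4 library 2 (adjusted p = 0.117 and 0.152), and in KO8 its log2 fold change was 0.18 (SE 0.09, adjusted p = 0.198).

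Dll1 was lower in primed cells of both clones. It had 213 and 239 reads in WT, 132 and 181 in KO4 and 140 and 141 in KO8, or 11.6 and 13.6, 7.86 and 10.9, and 8.18 and 9.37 RPM. All 4 knockout libraries lay below both WT libraries. It fell by 0.43 on the log2 scale in KO4 (SE 0.16, adjusted p = 0.0485) and by 0.51 in KO8 (SE 0.16, adjusted p = 0.0224). Size factors without chromosome 8, a pseudocount of 0.05 or a minimum of 1 read removed the KO4 call (adjusted p = 0.0577, 0.0508 and 0.0707). A minimum log2 change of 0.5 removed it as well. In KO4 the call was lost without WT library 1 or 2, KO4 library 1 or KO8 library 2 (adjusted p 0.0509 to 0.539), and in KO8 without WT library 2 or KO8 library 1 (0.268 and 0.185). Dll3 did not pass, with 8.50 and 9.43 RPM in WT, 7.82 and 9.11 in KO4 and 7.36 and 9.51 in KO8. Dll4 had 3 to 12 reads per library and was not tested.

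Markers of cell state also moved in primed cells. The sum of 4 of 6 primed epiblast markers was 119 to 125.5 RPM in WT, 71.7 to 79.3 in KO4 and 89.4 to 94.3 in KO8, and 2 of 4 tested were called lower in each clone. The sum of 5 of 7 neural progenitor markers was 38.3 to 40.3 RPM in WT, 54.6 to 57.3 in KO4 and 57.2 to 61.1 in KO8, with 1 at 0 in WT and in KO8, and of 4 tested 3 were called higher in KO4 and 2 in KO8. Neuron markers (8 of 10) summed to 37.3 to 39.3 RPM in WT, 34.0 to 36.45 in KO4 and 31.8 to 33.4 in KO8. The only naive pluripotency marker recovered had 51.1 to 52.9 RPM in WT, 33.9 to 37.0 in KO4 and 30.25 to 36.0 in KO8. Cardiomyocyte sums lay below WT in KO4 and above it in KO8. Endoderm sums lay above WT in KO4, and endothelial and smooth muscle sums below it in KO8. The part of these markers in the changes of Dll1, Jag1, Jag2 and Hey1 was not tested.

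Of the targets, Hey1 had 66 and 62 reads in primed WT cells, 35 and 22 in KO4 and 39 and 31 in KO8. Every knockout library lay below the WT libraries, at 1.32 to 2.28 RPM against 3.54 and 3.60. Hey1 fell by 0.99 on the log2 scale in KO4 (SE 0.28, adjusted p = 0.0095), and in KO8 its log2 fold change was -0.66 (SE 0.28, adjusted p = 0.117). The call in KO4 was lost without either WT library or KO4 library 2, with adjusted p up to 0.15. Hes1, which keeps progenitors from differentiating, had 20.8 and 20.5 RPM in WT, 17.6 and 20.4 in KO4 and 17.5 and 16.3 in KO8. Both KO8 libraries of Hes1 lay below WT, with a log2 fold change of -0.29 (SE 0.11, adjusted p = 0.0852), against -0.12 (SE 0.11) in KO4. Hey2 had 9 to 23 reads per library, with log2 fold changes of 0.37 (SE 0.42) and -0.31 (SE 0.42), and Hes5 had 4 to 12 and was not tested.

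In primed cells 4 of 8 members were called in KO4 and 2 of 8 in KO8, beside 19.2% and 14.6% of 9194 genes. Between the clones none was called (1 at an unadjusted p below 0.05, none with voom weights), beside 2.91%.

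Whether a clone's effect changed between naive and primed cells was tested for Dll1, Dll3, Dll4, Hes5, Hey1 and Hey2. Dll1, Dll4 and Hes5 were too weak to test within naive cells, and Dll4 and Hes5 also within primed cells. For these genes the comparison could hardly show a difference. None of the 6 was called for KO4, beside 2.71% of 3834 genes, or for KO8, beside 1.36%, and voom weights called none either, while 4 and 3 of them had an unadjusted p below 0.05. The values of Dll3 were the closest to a call. Its effect was 1.27 higher on the log2 scale in naive than in primed cells for KO4 (SE 0.37, adjusted p = 0.0579) and 1.22 higher for KO8 (SE 0.37, adjusted p = 0.0965).

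**Figure D3:**
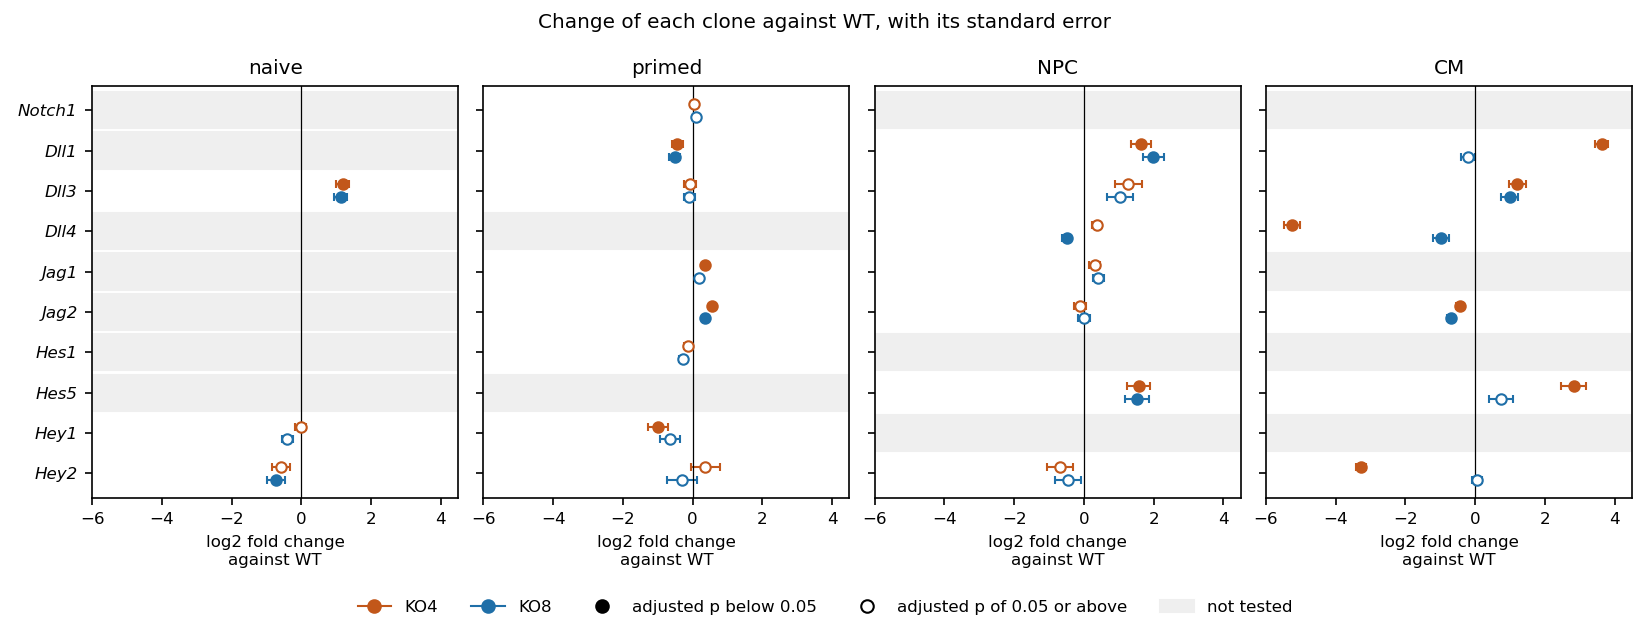
Log2 fold change of KO4 and KO8 against the WT libraries they share, with its standard error (bars), for each member and stage. Filled points passed an adjusted p of 0.05, open points did not, and grey rows were not tested. Dll3 in naive cells, Jag2 in primed cells, Dll1 and Hes5 in NPCs, and Dll3 and Jag2 in CMs are filled for both clones on the same side of 0, as is Dll1 in primed cells and Dll4 in CMs.

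In NPCs, Dll1 was higher in both clones. It had 168 and 156 reads in WT, 464 and 547 in KO4 and 487 and 1022 in KO8. All knockout libraries lay far above WT, at 26.7 and 34.2 RPM in KO4 and 26.4 and 57.6 in KO8 against 9.47 and 9.72. The log2 fold change was 1.63 (SE 0.29, adjusted p = 0.0111) in KO4 and 1.99 (SE 0.29, adjusted p = 0.00366) in KO8. Library 2 of KO8 held more than the other knockout libraries. Without it, with a lone KO8 library left, the change in KO8 was 1.43. Without a WT or a KO4 library, the KO4 call was lost with adjusted p of 0.0987 to 0.153, and without a WT library the KO8 call was lost with 0.0584 and 0.084. The reads of Dll1 were found only when libraries of a group were allowed to differ up to 4-fold from each other in place of 2-fold.

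Hes5, a progenitor gene under direct control of Notch, followed the same order of libraries. It had 67 and 75 reads in WT, 200 and 233 in KO4 and 153 and 341 in KO8, or 3.78 and 4.67, 11.5 and 14.6, and 8.28 and 19.2 RPM. No knockout library overlapped WT. The log2 fold change was 1.57 (SE 0.34, adjusted p = 0.0231) in KO4 and 1.53 (SE 0.34, adjusted p = 0.0186) in KO8. In the lone KO8 library left without library 2 it was 0.94. Without a WT or a KO4 library, adjusted p rose to between 0.144 and 0.238 in KO4 and between 0.0541 and 0.195 in KO8. Dll3 had 4.17 and 5.42 RPM in WT, 10.7 and 13.3 in KO4 and 6.06 and 16.5 in KO8. Its log2 fold changes of 1.28 (SE 0.39, adjusted p = 0.0813) and 1.04 (SE 0.39, adjusted p = 0.121) did not pass the test. Without KO8 library 2 the change of Dll3 in KO8 was 0.33, while that in KO4 stayed at 1.28. The spread used to test KO4 came from all 3 groups, these KO8 libraries included. With only KO4 and WT fitted, 5 members were called in KO4 NPCs in place of 2, and 1760 genes in place of 736.

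Markers of neural cells moved with these genes. Of 7 neural progenitor markers, 3 were recovered in NPCs (Fabp7, Pax6 and Sox1). Their summed level was 13.5 to 17.6 RPM in WT, 45.7 to 53.2 in KO4 and 41.3 to 94.8 in KO8, and all 3 were called higher in both clones. Of 10 neuron markers, 7 were recovered, with a summed level of 55.9 to 65.9 RPM in WT, 112 to 148 in KO4 and 109 to 250.5 in KO8, and 4 of 7 were called higher in each clone. None of these 10 markers was at 0 in a group, and library 2 of KO8 was the highest in both sums. Lists of other cell types moved too. The presomitic and somite sum (6 of 6) was 31.96 to 35.17 RPM in WT and 35.64 to 45.18 in KO4. In KO8 it was 34.91 and 64.24, with library 2 again highest and library 1 within WT. The smooth muscle sum (4 of 4) was 72.9 to 93.46 RPM in WT, 22.35 to 25.34 in KO4 and 49.91 to 66.32 in KO8. Cardiomyocyte sums lay below WT in both clones, and endoderm and primed epiblast sums in KO4 alone. The part of these markers in the changes of Dll1, Dll3 and Hes5 was not tested.

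**Figure D4:**
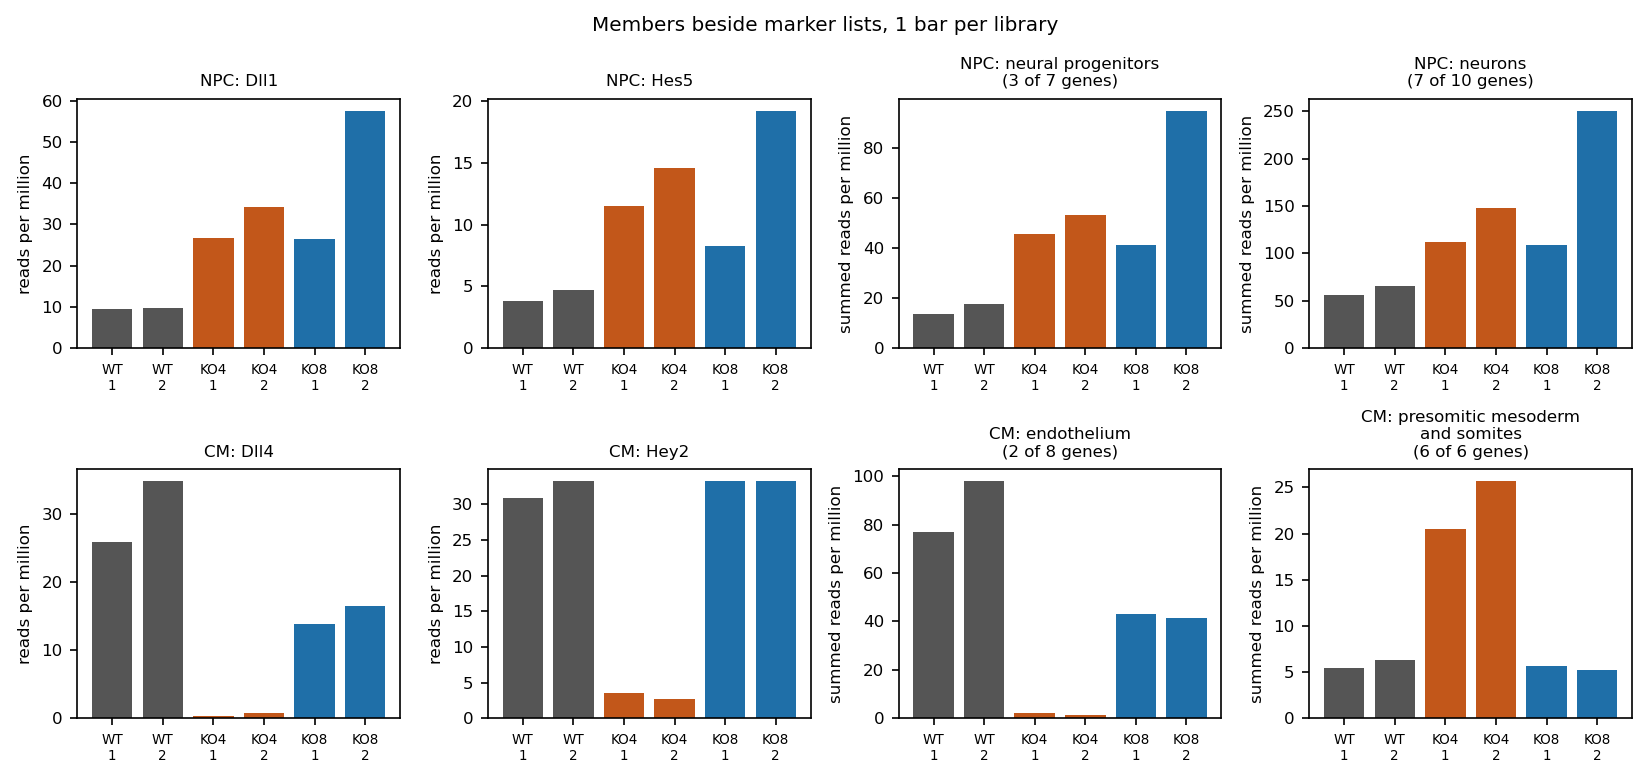
Levels of 2 members and the summed levels of 2 marker lists in each NPC library (upper row) and each CM library (lower row), in RPM, with 1 bar per library. In NPCs the bars of Dll1 and Hes5 stand in the same order of groups as the neural lists, with KO8 library 2 highest, and in CMs the bars of Dll4 are low where those of the 2 recovered endothelial markers are low, while Hey2 is low and the somite list high in KO4 alone.

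The other ligands changed less in NPCs. Dll4 had 554 and 423 reads in WT, 660 and 580 in KO4 and 405 and 333 in KO8, or 31.2 and 26.4, 38.0 and 36.3, and 21.9 and 18.8 RPM. The 3 groups did not overlap, with KO4 above and KO8 below WT. Dll4 fell by 0.50 on the log2 scale in KO8 (SE 0.13, adjusted p = 0.0386), its log2 fold change in KO4 was 0.37 (SE 0.13, adjusted p = 0.136), and KO4 lay 0.86 above KO8 (SE 0.13, adjusted p = 0.0164). The fall in KO8 was lost without any WT or KO4 library or KO8 library 2 (adjusted p 0.0569 to 0.314), and the difference between the clones without any WT or KO4 library (0.0691 to 0.309). Of 8 endothelial markers, 4 were recovered in NPCs. Their sum was 50.0 to 52.0 RPM in WT, 73.7 to 74.7 in KO4 and 46.6 to 58.5 in KO8, with 1 of 4 called higher in KO4, and its part was not tested.

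Jag1 had 36.0 and 34.1 RPM in WT NPCs, 47.7 and 40.1 in KO4 and 55.4 and 39.1 in KO8. Every knockout library lay above WT, and the log2 fold changes of 0.32 (SE 0.16, adjusted p = 0.299) and 0.41 (SE 0.16, adjusted p = 0.136) did not pass. Jag2 overlapped among all groups, with log2 fold changes of -0.12 (SE 0.18) and 0.01 (SE 0.18). Hey2 had 100 and 48 reads in WT, 35 and 48 in KO4 and 44 and 64 in KO8, which overlap, with log2 fold changes of -0.69 (SE 0.37) and -0.46 (SE 0.37). In all, 2 of 7 members were called in KO4, beside 7.77% of 9469 genes, 3 of 7 in KO8, beside 11.9%, and 1 of 7 between the clones, beside 1.51%. Only 2 libraries per group stand behind these calls, and with voom weights 0, 1 and 1 members were called.

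In CMs, Dll1 separated KO4 from the other groups. It had 111 and 69 reads in WT, 1008 and 1029 in KO4 and 84 and 64 in KO8, or 5.70 and 3.70, 58.5 and 60.8, and 4.36 and 3.63 RPM. KO8 overlapped WT, and the KO4 libraries lay far above both. The log2 fold change was 3.63 in KO4 (SE 0.20, adjusted p = 3.98e-09, 12.4-fold) and -0.20 in KO8 (SE 0.20, adjusted p = 0.513), and KO4 lay 3.82 above KO8 (SE 0.20, adjusted p = 2.46e-09).

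Hes5 had 10 and 24 reads in WT CMs, 128 and 125 in KO4 and 28 and 30 in KO8. The KO4 libraries stood at 7.42 and 7.39 RPM, above every WT and KO8 library, of which the WT libraries held 0.513 and 1.29 RPM. It rose by 2.82 in KO4 (SE 0.35, adjusted p = 1.14e-05), its log2 fold change in KO8 was 0.75 (SE 0.35, adjusted p = 0.13), and the clones differed by 2.07 (SE 0.35, adjusted p = 0.000182). Dll3 rose in both clones, from 46 and 41 reads in WT to 85 and 107 in KO4 and 90 and 86 in KO8, and no knockout library overlapped WT. Its log2 fold change was 1.21 (SE 0.24, adjusted p = 0.000852) in KO4 and 0.99 (SE 0.24, adjusted p = 0.00879) in KO8, the latter lost without either KO8 library (adjusted p = 0.0609 and 0.0724).

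Dll4 moved the other way. It had 503 and 650 reads in WT CMs, 7 and 12 in KO4 and 266 and 289 in KO8, or 25.8 and 34.8, 0.406 and 0.709, and 13.8 and 16.4 RPM. The 3 groups did not overlap, and KO4 was close to the primed level of 0.171 and 0.491 RPM in WT. Dll4 fell by 5.25 on the log2 scale in KO4 (SE 0.23, adjusted p = 6.39e-10) and by 0.98 in KO8 (SE 0.23, adjusted p = 0.00703), and the log2 difference of KO4 from KO8 was -4.27 (SE 0.23, adjusted p = 4.66e-09). The fall in KO8 was lost without WT library 2 or KO8 library 1 (adjusted p = 0.0934 and 0.102).

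Hey2, a repressor known from the ventricular muscle of the heart, had 602 and 620 reads in WT CMs, 61 and 45 in KO4 and 641 and 586 in KO8. It fell from 30.9 and 33.2 RPM to 3.54 and 2.66 in KO4, while KO8, at 33.2 and 33.3, lay just above the upper WT library. The log2 fold change was -3.28 in KO4 (SE 0.15, adjusted p = 7.32e-10) and 0.05 in KO8 (SE 0.15, adjusted p = 0.837), and -3.33 between the clones (SE 0.15, adjusted p = 7.05e-10). Jag2 was lower in both clones, with 761 and 661 reads in WT, 517 and 428 in KO4 and 453 and 386 in KO8, and no knockout library overlapped WT. It fell by 0.43 in KO4 (SE 0.11, adjusted p = 0.00488) and by 0.71 in KO8 (SE 0.11, adjusted p = 0.000426), and the call in KO4 was lost without KO4 library 2 (adjusted p = 0.0781).

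Markers of other cell types moved with these genes in CMs. Of 8 endothelial markers, 2 were recovered, Emcn and Esam, and the others were too abundant or not solved. Their sum was 77.1 to 98.0 RPM in WT, 1.478 to 2.203 in KO4 and 41.3 to 43.0 in KO8, and both were called lower in each clone. All 6 markers of presomitic mesoderm and somites were recovered, with a sum of 5.49 to 6.27 RPM in WT, 20.5 to 25.7 in KO4 and 5.28 to 5.70 in KO8, and 1 of them was at 0 in WT and in KO4. Of 5 tested, 3 were higher and 1 lower in KO4, and 1 was higher and 1 lower in KO8. Among 10 neuron markers, 8 were recovered, with a sum of 11.4 to 13.1 RPM in WT, 27.1 to 32.1 in KO4 and 6.01 to 6.24 in KO8, and 1 of them was at 0 in every group. Of 4 tested, 3 were higher in KO4 and 3 lower in KO8. Of the 7 neural progenitor markers only Fabp7 was recovered in CMs, at 0.975 to 1.45 RPM in WT, 2.84 to 4.70 in KO4 and 0.622 to 0.738 in KO8, and it was called higher in KO4. The base means of Sox1, Pax6 and Sox2 were 1757, 1425 and 4311 in the CM table of KO4 and 84.85, 78.22 and 1274 in that of KO8, which holds the same WT libraries.

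Other lists moved in CMs as well. The sum of 6 of 8 naive pluripotency markers was 89.5 to 89.8 RPM in WT, 162 to 226 in KO4 and 41.9 to 44.4 in KO8, with 4 of 6 called higher and 1 lower in KO4 and 5 lower in KO8. The sum of 2 of 6 endoderm markers was 79.5 to 91.3 RPM in WT, 3.48 to 7.27 in KO4 and 71.1 to 73.3 in KO8, with 2 called lower in KO4 and 1 in KO8. The 9 cardiomyocyte markers were not recovered, but all 9 had a lower base mean in the table of KO4 than in that of KO8, such as 3073 against 4657 for Tnnt2, 610.5 against 1325 for Nkx2-5 and 9693 against 14100 for Myh7. The part of these cell types in the changes of Dll1, Hes5, Dll4 and Hey2 was not tested.

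All 6 members tested in CMs were called in KO4, beside 56.1% of 9190 genes, 3 of 6 in KO8, beside 25.9%, and 4 of 6 between the clones, beside 53.7%. A call alone thus says little in KO4, so the sizes are given: on the fitted scale Dll4 was at 0.0262 and Hey2 at 0.103 of WT in KO4, and Dll1 was 12.4-fold and Hes5 7.07-fold higher.

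The effects of the clones differed between NPCs and CMs. For KO4, 3 of 6 members were called, beside 37.8% of 9236 genes. The effect of KO4 was 5.62 higher in NPCs than in CMs for Dll4 (SE 0.41, adjusted p = 1.47e-11), 2.60 higher for Hey2 (SE 0.45, adjusted p = 5.13e-05) and -2.00 for Dll1, which rose in both stages and more in CMs (SE 0.39, adjusted p = 0.000211). For KO8, 2 of 6 were called, beside 20.7%. The effect of KO8 was 2.19 higher in NPCs for Dll1 (SE 0.39, adjusted p = 0.000175) and 0.71 higher for Jag2 (SE 0.19, adjusted p = 0.00971). The call of Jag2 was lost without NPC WT library 2 or NPC KO8 library 2 (adjusted p = 0.0644 and 0.0707). For Dll3 the effects in the 2 stages differed by 0.07 (SE 0.40) in KO4 and 0.05 (SE 0.40) in KO8.

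For 11 pairs of member and stage reads were not recovered, and the authors' comparison columns were not used here, so only base means are given, in normalized reads over WT and 1 clone. Because both tables of a stage hold the same WT libraries, the difference between the mean levels of KO4 and KO8 follows from them, without a test. In naive cells, Notch1 had base means of 2404 with KO4 and 2410 with KO8, and KO4 minus KO8 was -4.43. Jag1 had 1954 and 1867 with a difference of 180, Jag2 had 373 and 415.6 with -84, and Hes1 had 1545 and 1575 with -53.9. In NPCs, Notch1 had 862.9 and 1064 with -322, Hes1 had 1154 and 1177 with 43, and Hey1 had 2472 and 2320 with 478. In CMs, Notch1 had 1753 and 1788 with 32.1, Jag1 had 1854 and 1308 with 1160, Hes1 had 1247 and 1138 with 282, and Hey1 had 916.5 and 1231 with -559. The 2 clones were thus close in Notch1 in naive cells and CMs, KO4 had more Jag1 and less Hey1 than KO8 in CMs, and the change of each clone against WT does not follow from these base means.

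The pathway beyond the members was followed in a list of 70 genes. In primed cells 40 of them were tested, and 4 were higher and 8 lower in KO4 and 2 higher and 5 lower in KO8 (30% and 17.5% called, beside 19.2% and 14.6% of all genes). In NPCs, of 29 tested, 3 were higher and 1 lower in KO4 and 3 higher and 2 lower in KO8 (13.8% and 17.2%, beside 7.77% and 11.9%). In CMs, of 29 tested, 7 were higher and 12 lower in KO4 and 1 higher and 9 lower in KO8 (65.5% and 34.5%, beside 56.1% and 25.9%). Whether the list differed from all genes was not tested. In naive cells only 3 were tested, of which 2 were lower in KO4 and 1 in KO8. For KO4 and KO8 respectively, the list had a median log2 fold change of -0.05 and -0.01 at the primed stage, 0.07 and -0.08 at the NPC stage, and -0.18 and -0.25 at the CM stage.

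Genes of the list called in the same direction in both clones are given by name. The clones share the WT libraries, and the share of all genes called in both is not given, so such calls do not set the list apart. In NPCs, Nrarp, a Notch target that limits the signal, had 16.2 and 16.5 RPM in WT, 30.8 to 40.5 in KO4 and 25.9 to 49.3 in KO8, and rose by 1.10 and 1.12 (SE 0.25 each). Dner, a neuronal membrane protein with Delta-like repeats, rose by 1.61 and 2.24 (SE 0.38 each). Maml3, a coactivator of the RBPJ complex, rose by 0.55 and 0.52 (SE 0.09), and Cntn1, a neuronal adhesion protein, fell by 1.08 and 1.22 (SE 0.15). Nrarp, Dner and Maml3 thus stood with Dll1 and Hes5 on the higher side, and Cntn1 on the lower side.

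In CMs, Heyl, another Hey-type gene, had 112 and 164 reads in WT, 2 in each KO4 library and 26 and 30 in KO8, with log2 fold changes of -4.33 and -2.06 (SE 0.34). The receptor Notch4, known from endothelium, had 47.0 to 53.0 RPM in WT, 7.89 to 8.22 in KO4 and 20.0 to 21.7 in KO8, and fell by 2.60 and 1.25 (SE 0.12). Mfng, a glycosyltransferase that modifies Notch, fell by 1.76 and 0.58 (SE 0.18), and Maml2, a coactivator, by 0.44 and 0.36 (SE 0.12), while Numbl, an inhibitor of Notch, rose by 0.51 and 0.46 (SE 0.09). Heyl, Notch4 and Mfng shared the order of Dll4, with KO4 lowest and WT highest.

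In primed cells, the genes named in this way fell. Bhlhe40, a basic helix-loop-helix repressor, fell by 0.89 and 0.76 (SE 0.09), Notch4 by 0.85 and 0.57 (SE 0.13), Numbl by 0.40 and 0.44 (SE 0.09), Mib2, an enzyme that tags ligands for uptake, by 0.46 and 0.33 (SE 0.08), and Dtx1, a regulator of Notch turnover, by 0.67 and 0.28 (SE 0.10). In naive cells Ascl2 fell by 0.50 and 0.57 (SE 0.18).

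Over the 12 group means, the genes most like each member were named for the 5 members recovered in all 12 groups, among 3511 genes. Only genes recovered at every stage were compared, so genes too abundant for recovery at any stage could not be named. Dll4 was closest to Esrrg (Pearson r = 0.990) and Clca2 (0.988), Hey2 to Rgs4 (0.987) and Gfra2 (0.986), Hes5 to Scg5 (0.989) and Apba2 (0.987), Dll1 to Nat8l (0.979) and Stk32c (0.972), and Dll3 to Soga3 (0.927) and Tmem145 (0.925). These correlations are descriptions over groups that share a stage and its scaling.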

How the data were processed

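RNA of 27 libraries of V6.5 mouse embryonic stem cells was sequenced. Per the labels and the paper's methods, the authors trimmed reads with Trim Galore 0.6.7, aligned them to mm9 with HISAT2 2.2, assigned them to genes by featureCounts, and tested clones against WT in DESeq2 1.46.0. Strand settings are not given in the sources used here. The 8 deposited tables of 25209 genes give the base mean, a normalized signal averaged by the authors over the libraries of a comparison and printed to 10 significant digits, and the authors' fold changes, standard errors, test statistics and p-values, which were not used.

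Each base mean is a sum of whole reads divided by size factors. Genes with 1 read in 1 library show that library's size factor, and the libraries whose single reads appear in both tables of a stage are the WT libraries. With these factors, the only set of whole reads that solves both tables was searched for each gene up to a base mean of 999.9 (90 in naive cells). Below 300 (30 in naive cells), 99.3% to 99.9% of genes were recovered. On simulated data, wrong sets were found for 2 of 1978 recovered genes of naive cells with base means of 30 to 60 and 1 of 754 at 60 to 90, and for none elsewhere. The simulated reads were drawn from recovered genes and from added genes with equal means within a group. Genes whose libraries differ beyond the allowed ratio were thus hardly covered. Above 300 (primed cells, NPCs and CMs), 97.3% to 100.0% were recovered, and 8.45% to 10.6% of altered base means also had a solution. Genes above these limits, 11056 in naive cells and 4007 to 5107 at the other stages, were not recovered, so members that are abundant or rose past the limit are missing.

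RPM were recovered reads per 1000000 reads of effective depth, which is the approximate depth scaled by median-of-ratios size factors of the recovered genes. Genes with a mean of at least 10 normalized reads were tested with limma 3.58.1 (R 4.3.3; moderated test with a trend, 2-sided) on log2(RPM + 0.25). The fit held all 3 groups of a stage, or all 27 libraries for comparisons across stages. Tested on simulated data, a log2 change of 1 was recovered in 93% (naive), 96% (primed), 99% (NPC) and 98% (CM) of changed genes and a change of 0.5 in 15%, 29%, 35% and 37%. These changes were placed only in genes well above the minimum of reads, with the same spread between libraries at every stage. The shares therefore do not hold for weak members or for groups whose libraries differ more, such as KO8 NPCs. With tables that hold no counts, DESeq2 and edgeR were not run here. Reads and counts of reads are not molecules.

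The alternatives were total recovered reads, size factors without chromosome 8, other pseudocounts (0.05 and 1), a minimum of 1 read, voom weights, 2-group fits, a minimum log2 change of 0.5 and leaving out each library, and, added after seeing the data, the size factors of the deposited tables. The members and gene lists were chosen with earlier results of these data known. Named were the members, their 2 nearest genes, Zfp512b, and up to 6 of the 70 other pathway genes per stage that were called in both clones with the same sign, taking those with the largest smaller change.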

Additional observations from a re-analysis of the deposited data

Results flagged for a closer look

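For 3 members the effect of KO4, and for 2 the effect of KO8, differed between NPCs and CMs by a test of the difference itself (limma, 27 libraries). For KO4 the difference, NPC minus CM, was 5.62 for Dll4, 2.60 for Hey2 and -2.00 for Dll1 on the log2 scale. For KO8 it was 2.19 for Dll1 and 0.71 for Jag2. The 2 NPC libraries of KO8 stood apart in Dll1, with 26.4 and 57.6 RPM, and without the higher of them the difference of Dll1 was 1.63. The groups of 2 and 3 libraries are too small for a check of single outlying libraries.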

How the results depend on the processing

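No paired analysis was possible because the recovered libraries carry no replicate number of the labels. No called value of a member changed its sign under any alternative run. With voom weights, no member was called in KO4 NPCs (2 as reported), 1 in KO8 NPCs (3) and 1 for the KO8 effect between NPCs and CMs (2). Fits of only the 2 groups compared called 5, 1 and 0 members in KO4, in KO8 and between the clones in NPCs. A minimum log2 change of 0.5 left 2 members in primed KO4 and 1 in primed KO8. A minimum of 1 read, or the deposited tables' size factors (added after seeing the data), left 1 in naive KO8, and a pseudocount of 0.05 called 1 for the KO4 effect between naive and primed cells. The causes were not tested.

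Over all genes, the minimum log2 change gave 917, 691 and 152 calls in primed KO4, KO8 and between the clones (1766, 1346 and 268 as reported). In NPCs, voom weights gave 435 in KO4 and 62 between the clones, and 2-group fits gave 1760 in KO4, 665 in KO8 and 6 between the clones (736, 1131 and 143). For the KO4 effect between naive and primed cells (104), pseudocount 1 gave 64, a minimum of 1 read 65 and voom 15, and for KO8 (52) voom gave 10. Voom, which tested fewer genes across stages, gave 1177 and 599 for the effects of KO4 and KO8 between NPCs and CMs (3489 and 1911), 2652 for WT NPCs and 2456 for WT CMs against primed cells (7379 and 6955).

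Leaving out each library, with a lone sample assumed to vary like the others, gave these ranges of members called: 1 to 2 in naive KO4 and in naive KO8, 1 to 4 in primed KO4, 1 to 2 in primed KO8, 0 to 5 in NPC KO4, 0 to 4 in NPC KO8, 0 to 2 between the clones in NPCs, 1 to 3 in CM KO8 and 1 to 2 for the KO8 effect between NPCs and CMs. Over all genes the ranges were 102 to 193 between the clones in naive cells, 1022 to 1764, 719 to 1459 and 108 to 252 in primed KO4, KO8 and between the clones, 2 to 1762, 97 to 2242 and 5 to 1512 in NPCs in the same order, 1246 to 2307 in CM KO8, and 39 to 111 and 17 to 64 for the KO4 and KO8 effects between naive and primed cells. Depth limits naive Dll1, Dll4 and Hes5, and primed Dll4 and Hes5, which were too weak to test within their stage.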
